A study of Pimephales promelas with 26 samples.

Results

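The 200 most abundant non-coding RNA models of fathead minnow larvae were described here across 26 RNA sequencing libraries. The models are the RefSeq transcripts whose identifiers begin with XR_, and the 200 with the highest mean TPM in the water controls (n = 5) were taken from 8857 such models among 57299 transcripts. TPM is a transcript's abundance relative to all transcripts of its library, scaled to the effective length of a transcript. In its simplest form that length is the number of positions at which a fragment could start. The deposited values exceed the model's length in 4 members, so they are not that number alone. The members were thus chosen by their levels in water, so those levels and all differences from water are given as a description, and tests that bear on the members compare the fluoxetine groups with each other. The water libraries still enter the F-test among those groups through the shared estimate of spread and the count filter.

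RNA classed as non-coding has several roles. Ribosomal RNA forms the ribosome, small nuclear RNAs (snRNAs) serve in splicing, small nucleolar RNAs (snoRNAs) guide chemical changes of ribosomal and other RNA, and long non-coding RNAs (lncRNAs) are a mixed class, few of which have a known function. A non-coding RefSeq model can also be a variant of a protein-coding gene, such as a transcript that keeps an intron and lacks a full reading frame. Most rRNA, snRNA and snoRNA carries no poly(A) tail and is meant to be left behind by the poly(A) selection that the labels describe, so their levels in such libraries do not measure their levels in the animal.

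The fathead minnow (Pimephales promelas) is a North American fish on which chemicals are often tested, and fluoxetine (FLX) is an antidepressant that blocks the serotonin transporter. Whole larvae were pooled, 20 to a library, at 7 days after fertilization, having been exposed through the water from 6 h on. Water alone served as the control (5 libraries). Measured fluoxetine concentrations were 0.74, 3.38 and 10.2 µg/L, with 5 libraries each, and 0.19 and 47.2 µg/L, with 3 each. The labels give no strain or genotype. In whole-larva RNA, fewer cells of a type and less RNA per cell cannot be told apart. Some markers of muscle, liver, blood, lens, photoreceptors, pancreas, neurons, epidermis and cartilage were found among the messenger models. All 4 listed were found for neurons, but only 2 of 5 for pancreas and 1 of 3 for cartilage. Total estimated counts ranged from 13515478 to 27614956 per library. Replicate B at 0.19 µg/L and replicate C at 3.38 µg/L stood apart in the share of reads that the members took, and the 0.19 and 0.74 µg/L libraries had longer fragments than the water libraries.

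Abundance was concentrated in a few models. In water the members summed to 43689 ± 792 TPM (SD, n = 5), which was 76.6% of the TPM of all non-coding models. The highest member alone carried 14.3% of the non-coding TPM, the 5 highest 34.3%, and the 20 highest 51.3%. The median member had 58.0 TPM, against 0.229 TPM for the median of all non-coding models and 2.19 TPM for the median messenger model. Of the members, 5 were among the 100 transcripts of highest TPM of any kind and 57 among the first 1000, and 3172 messenger models reached the level of the 200th member.

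XR_005618481.1, a model of 422 bases that the reference gene table does not pair with a gene, was the most abundant non-coding model and 8th among all transcripts. It had 8174, 8350, 8092, 7834 and 8456 TPM in the water pools. At 0.19 µg/L it had 6778, 6883 and 6981 TPM, at 47.2 µg/L 6763, 6950 and 6688 TPM, and at 0.74 µg/L between 6752 and 7325 TPM. At 3.38 µg/L it lay between 7264 and 9136 TPM and at 10.2 µg/L between 7486 and 8931 TPM. All 11 libraries at 0.19, 0.74 and 47.2 µg/L were thus below the lowest water pool, and the libraries at 3.38 and 10.2 µg/L overlapped water. The F-test among the fluoxetine groups did not call it (edgeR adjusted p = 0.0893).

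**Figure D1:**
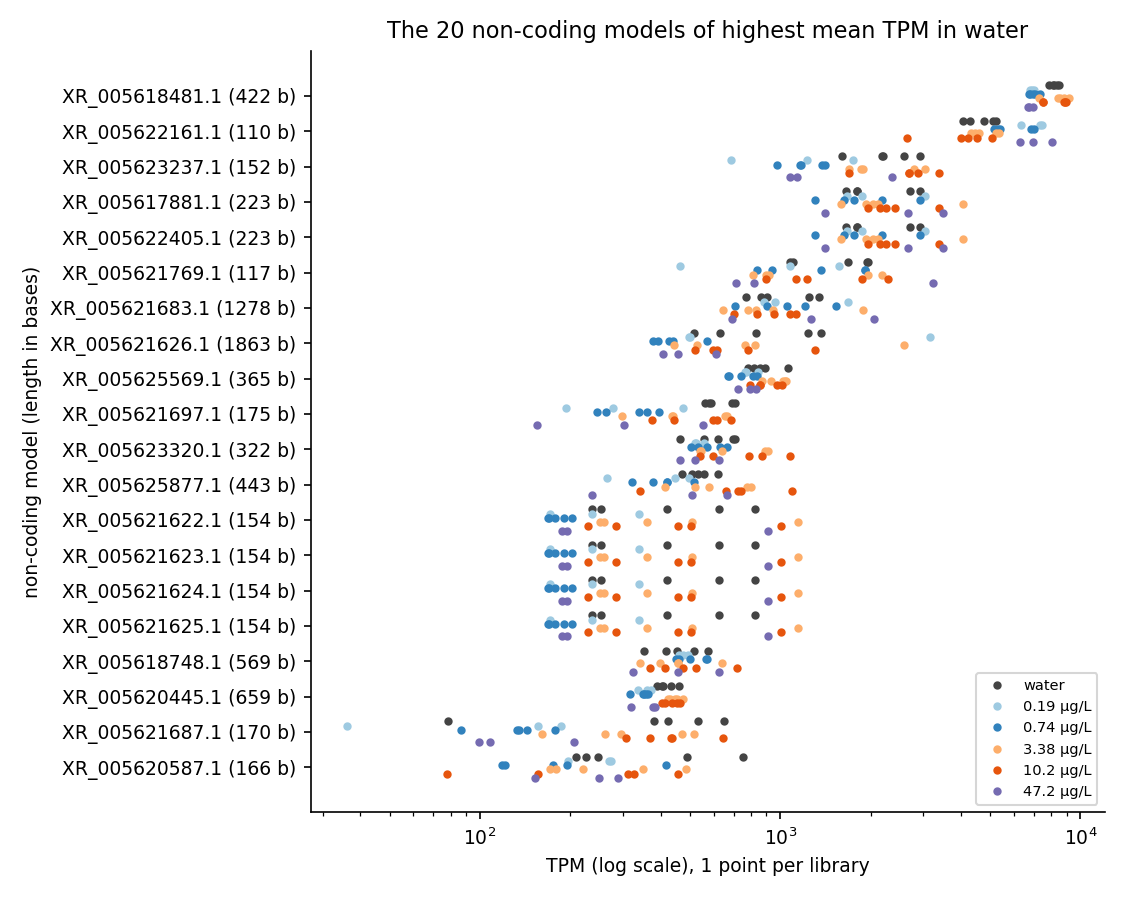
TPM of the 20 highest members in each of the 26 libraries, on a log axis, with 1 point per library, coloured by group, and the model length in bases. XR_005618481.1 stays between 6688 and 9136 TPM, whereas XR_005621687.1 spans 36.0 to 650 TPM.

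The next members were short. XR_005622161.1, of 110 bases, had 4052, 4278, 5241, 4788 and 5124 TPM in water. It had 7307, 7449 and 6327 TPM at 0.19 µg/L and 6967, 6312 and 8041 TPM at 47.2 µg/L, all above every water pool, and between 2641 and 5063 TPM at 10.2 µg/L. XR_005623237.1, of 152 bases, had 2301 ± 496 TPM in water (SD, n = 5), 1220 ± 179 TPM at 0.74 µg/L (SD, n = 5) and 2664 ± 608 TPM at 10.2 µg/L (SD, n = 5). At 0.74 µg/L each of its 5 libraries was below the lowest water pool. XR_005621769.1, of 117 bases, ranged from 463 to 3232 TPM over the 26 libraries, with groups that overlapped throughout.

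XR_005621697.1, of 175 bases, had 624 ± 67.6 TPM in water (SD, n = 5), 315 ± 144 TPM at 0.19 µg/L (SD, n = 3), 320 ± 64.2 TPM at 0.74 µg/L (SD, n = 5) and 337 ± 202 TPM at 47.2 µg/L (SD, n = 3). XR_005621687.1, of 170 bases, had 413 ± 214 TPM in water, where 1 pool was at 78.5 TPM and the others between 381 and 650 TPM. At 0.74 µg/L its mean was 135 ± 32.8 TPM (SD, n = 5). For XR_005621697.1 no library at 0.19, 0.74 or 47.2 µg/L reached the lowest water pool, 560 TPM. XR_005621687.1 overlapped water in every group. XR_005625569.1, of 365 bases, was steadier, with group means between 747 and 981 TPM. XR_005623320.1 had 610 TPM in water and XR_005625877.1 538 TPM.

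High TPM was not the same as many reads. The members were between 56 and 7142 bases long, with a median of 432.5 bases, against 2545 bases for messenger models. In a short model few fragment positions are possible, and in water the effective length of the 110-base model XR_005622161.1 was 13.95 bases. Its 4697 TPM came from a mean of 819 counts, whereas the 22160 counts of XR_005618481.1 gave 8181 TPM. The effective length was under 20 bases in 30 members and under 0.25 of the model's length in 67. It exceeded the model's length in 4.

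The 34 members under 150 bases held 20.0% of the members' TPM and 0.829% of their counts, with a median count of 10.6 in water. The 54 members of 150 to under 300 bases held 31.0% of the TPM and 3.94% of the counts. The 66 of 300 to under 1000 bases held 35.7% and 26.4%, and the 46 of 1000 bases or more held 13.3% and 68.8%. In water 16 members had a mean under 10 counts, 60 a mean under 50 and 31 a mean of 1000 or more. Of the 200 models with the highest CPM in water (the count scaled to library size), 99 were members, with a median length of 922 bases. The 101 members outside that set had a median length of 181 bases.

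**Figure D2:**
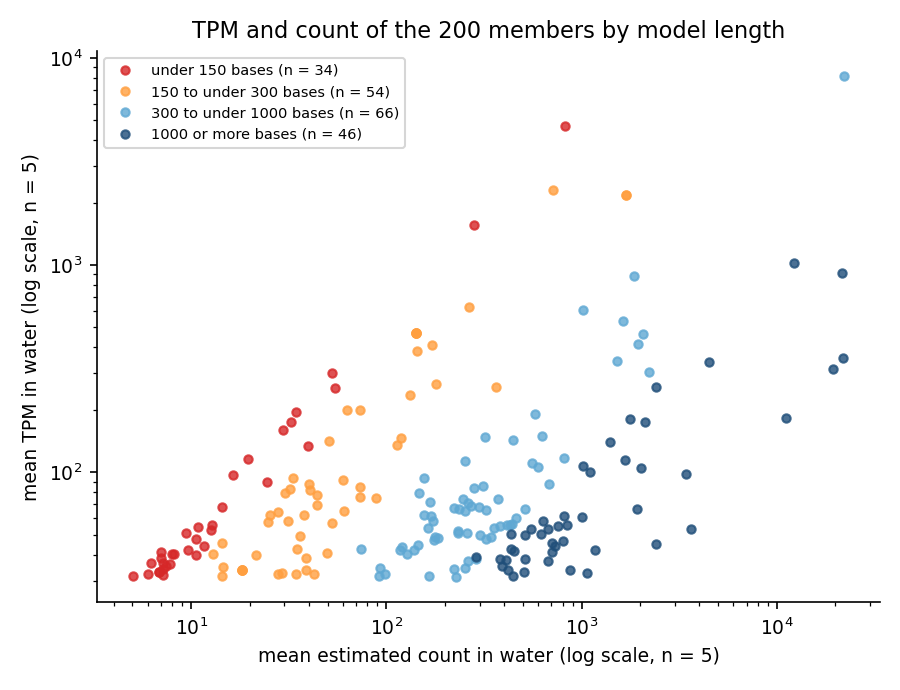
Mean TPM against mean estimated count in water (n = 5) for the 200 members, both on log axes, coloured by model length. Models under 150 bases, with a median of 10.6 counts, reach the same TPM as models of 1000 bases or more, whose median is 827 counts.

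A large share of the members' reads came from 3 long models, of which the first is among the 20 highest and the others were singled out after their values were seen. XR_005621626.1, of 1863 bases, had 1369, 515, 630, 1239 and 833 TPM in the water pools. XR_005621628.1, of 4062 bases, had 568, 179, 210, 499 and 322 TPM, and XR_005621629.1, of 4063 bases, had 505, 149, 172, 437 and 316 TPM. All were highest in pools A and D and lowest in pool B, and none is paired with a gene. Their identifiers come soon after those of the 154-base models described below, which include the rRNA member. Whether the 3 long models are rRNA was not tested. Their levels after poly(A) selection may therefore not measure their levels in the animal.

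In replicate B at 0.19 µg/L they reached 3148, 920 and 767 TPM in that order, and in replicate C at 3.38 µg/L 2579, 1009 and 1074 TPM. Their share of the members' counts was 56.5% and 59.2% in those libraries, between 20.3% and 44.7% in water and between 15.0% and 22.6% at 0.74 µg/L. The members took between 0.925% and 1.27% of all counts in the water libraries, and 1.825% and 1.858% in those same libraries. The remaining members together took between 0.606% and 0.941% of counts in every library. XR_005621683.1, of 1278 bases and not paired, was highest in other libraries, with 2051 TPM in replicate B at 47.2 µg/L and 1891 TPM in replicate B at 3.38 µg/L, against 769 to 1342 TPM in water.

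The reference gene table paired 60 of the 200 members with a gene (30%) and 1381 of all non-coding models (15.6%). Of the 60, 32 belong to lncRNA genes, 15 to snoRNA genes, 6 to protein-coding genes, 5 to snRNA genes, 1 to an rRNA gene and 1 to a gene typed only as ncRNA. The 140 members that were not paired held 89.4% of the members' TPM, so most of the abundant non-coding RNA is known here by identifier alone.

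The rRNA member, XR_005621625.1 (LOC120473585), is of 154 bases. It had 628, 235, 253, 825 and 420 TPM in the water pools and between 168 and 203 TPM at 0.74 µg/L, where every library was below the lowest water pool. Its highest values were 1144 TPM in replicate C at 3.38 µg/L and 1004 TPM in replicate D at 10.2 µg/L. In water pools A and D it was high, as the 3 long models were. XR_005621622.1, XR_005621623.1 and XR_005621624.1 had exactly its values in every library. Reads that fit several models equally well are divided among them by the counting program, so the level of each of the 4 is uncertain. None was called among the fluoxetine groups (edgeR adjusted p = 0.392).

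Such equal values joined 10 members in 3 sets. XR_005617881.1 and XR_005622405.1, both of 223 bases and 4th and 5th in rank, had 1803, 2928, 2712, 1662 and 1805 TPM in water and up to 4066 TPM in replicate B at 3.38 µg/L. The third set is 4 snRNA models, XR_005620528.1 to XR_005620531.1 (LOC120470464 to LOC120470467), of 191 bases. They had between 22.4 and 42.1 TPM in water and 0.000129 TPM in replicate E at 10.2 µg/L, the lowest of the 26 libraries, where the other 4 pools of that concentration had 27.4 to 37.3 TPM.

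The 5 snRNA members together had 166 ± 24.8 TPM in water (SD, n = 5) and 95.1 ± 25.2 TPM at 0.19 µg/L (SD, n = 3), where all libraries were below the lowest water pool. They had 127 ± 21.6 TPM at 0.74 µg/L, 155 ± 37.1 TPM at 3.38 µg/L and 125 ± 66.3 TPM at 10.2 µg/L (SD, n = 5 each). At 47.2 µg/L they had 134 ± 25.7 TPM (SD, n = 3). These 4 groups overlapped water. These rest on 41.8 to 99.9 counts per library in water, and of the 4 that were tested none was called in any test.

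The 15 snoRNA members were models of 71 to 196 bases with 31.8 to 67.8 TPM in water and a mean of only 6.00 to 21.4 counts. In 6 of them the nearest protein-coding gene on one side, in the order of the reference table, encodes a ribosomal protein (rpl10, rpl3, rpl24, rplp0, rpl39 and rpl37). In vertebrates many snoRNAs lie in introns of such genes. Their summed level was 632 ± 128 TPM in water (SD, n = 5), 461 ± 142 TPM at 0.19 µg/L (SD, n = 3), 418 ± 92.5 TPM at 0.74 µg/L (SD, n = 5), 548 ± 45.7 TPM at 3.38 µg/L (SD, n = 5), 554 ± 127 TPM at 10.2 µg/L (SD, n = 5) and 444 ± 127 TPM at 47.2 µg/L (SD, n = 3). The ranges overlapped. Of the 11 tested, none was called in any test, and the sum was not tested.

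The 32 lncRNA members summed to 2950 ± 71.5 TPM in water (SD, n = 5). Their sum was 2700 ± 118 TPM at 0.19 µg/L (SD, n = 3), 2760 ± 72.1 TPM at 0.74 µg/L (SD, n = 5) and 2770 ± 143 TPM at 47.2 µg/L (SD, n = 3), and 3050 TPM at both 3.38 and 10.2 µg/L. The highest library at 0.19 µg/L, at 2790 TPM, was below the lowest water pool, at 2860 TPM. The highest was XR_005618748.1 (LOC120464847), of 569 bases, at 463 ± 87.0 TPM in water (SD, n = 5). XR_005620445.1 (LOC120469926), of 659 bases, followed at 418 ± 28.5 TPM and lies between kcnv2b and idua in the gene order. Members of this class that were called among the fluoxetine groups were XR_005620445.1 and XR_005622168.1 (LOC120476543).

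The 6 members of protein-coding genes were non-coding variants of rsrp1, cirbpb, crebzf, sfpq, tardbpb and cirbpa. Cirbpa and cirbpb encode cold-inducible RNA-binding proteins, sfpq a splicing factor, tardbpb the RNA-binding protein TDP-43, crebzf a leucine-zipper transcription factor, and rsrp1 a protein rich in arginine and serine. In water the non-coding variant held 50.9% ± 3.96 of the gene's TPM for rsrp1, 51.1% ± 2.98 for sfpq and 44.8% ± 3.75 for tardbpb (SD, n = 5). For crebzf it held 99.7% ± 0.616, with its messenger model at 0.121 TPM. The shares were lower for cirbpb, at 15.1% ± 3.37, and for cirbpa, at 10.5% ± 1.94. Reads shared between variants of 1 gene are divided by the counting program, so each share is less certain than the gene's sum.

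The tardbpb variant XR_005617831.1 had 38.6, 32.3, 33.2, 31.5 and 26.8 TPM in water, 41.5, 40.0 and 38.4 TPM at 0.19 µg/L and 41.6, 44.3 and 36.1 TPM at 47.2 µg/L. Its share was 51.7% ± 2.21 at 0.19 µg/L (SD, n = 3), 50.4% ± 2.39 at 0.74 µg/L (SD, n = 5), 44.9% ± 0.865 at 3.38 µg/L (SD, n = 5), 44.6% ± 2.18 at 10.2 µg/L (SD, n = 5) and 49.6% ± 3.52 at 47.2 µg/L (SD, n = 3). The rsrp1 variant XR_005622914.1 had a share of 58.5% ± 1.18 at 0.19 µg/L (SD, n = 3) and 58.2% ± 2.47 at 0.74 µg/L (SD, n = 5). Its share was 50.3% ± 3.63 at 3.38 µg/L (SD, n = 5), 49.8% ± 3.14 at 10.2 µg/L (SD, n = 5) and 54.5% ± 4.39 at 47.2 µg/L (SD, n = 3). These shares were not tested. In counts, none of the 6 variants was called in any test, and the smallest adjusted p among the fluoxetine groups was that of the cirbpa variant XR_005620788.1 (0.106).

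Of the 11 messenger models of these 6 genes, 10 were tested and 2 were called among the fluoxetine groups, where 3.99% of all transcripts were. The cirbpa model XM_039661142.1 had 53.9 ± 13.8 TPM in water (SD, n = 5), 38.0 ± 8.65 TPM at 0.19 µg/L (SD, n = 3), 35.3 ± 5.87 TPM at 0.74 µg/L (SD, n = 5), 58.7 ± 11 TPM at 3.38 µg/L (SD, n = 5), 59.9 ± 7.08 TPM at 10.2 µg/L (SD, n = 5) and 36.1 ± 9.84 TPM at 47.2 µg/L (SD, n = 3; edgeR adjusted p = 0.0201). The other cirbpa messenger models were not called and did not share 1 order. XM_039661143.1 had means of 36.0, 40.1 and 44.7 TPM at 0.19, 0.74 and 47.2 µg/L, against 27.2 TPM in water. The most abundant, XM_039661145.1, had group means from 138 to 155 TPM. XM_039661139.1 was lower at 0.19 and 0.74 µg/L, at 5.59 and 6.06 TPM against 11.7 TPM in water. The cirbpb model XM_039681559.1 had 573 ± 60.4 TPM in water and its lowest mean, 483 ± 50.1 TPM, at 0.74 µg/L (SD, n = 5; adjusted p = 0.0396). None of the 10 was called against water at any single concentration, and the cirbpa model XM_039661142.1 was called over all 5 together (adjusted p = 0.033). With fragment length as a covariate neither was called among the fluoxetine groups (adjusted p = 0.526 and 0.857).

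Many members varied between pools by more than counting error. The coefficient of variation (CV, SD over mean) of TPM over the 5 water pools had a median of 23.7% over the members, and counting error alone would give a median of 7.42%. Over the 3172 messenger models at least as abundant as the 200th member the median was 11.7%. Among the 125 members of 100 counts or more in water the median was 20.1%, and among messenger models of that kind 11.7%. By length it was 36.9% under 150 bases, 25.8% at 150 to under 300 bases, 20.8% at 300 to under 1000 bases and 17.1% at 1000 bases or more. In 120 members the CV was over 2 times that of counting error. In the fluoxetine groups the members' median CV was 21.4%, 18.5%, 24.6%, 23.1% and 26.6% in ascending order of concentration, and that of the messenger models was between 8.89% and 13.7%.

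**Figure D3:**
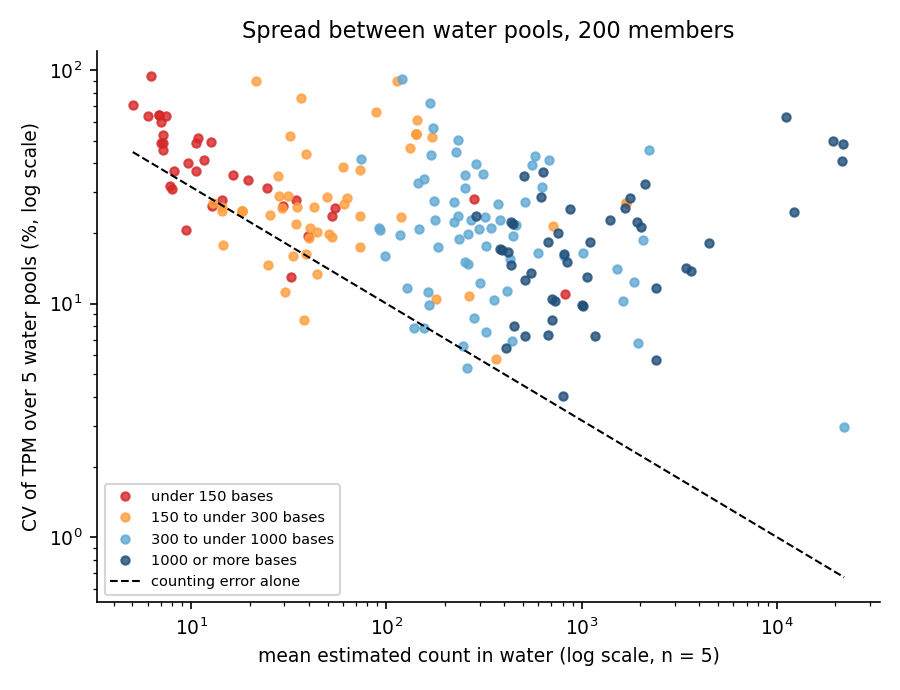
CV of TPM over the 5 water pools against the mean estimated count, both on log axes, for the 200 members coloured by model length. The dashed line is the CV from counting error alone, and 120 members lie above 2 times that line.

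The steadiest member was also the most abundant, XR_005618481.1, with a CV of 2.95%. XR_005622731.1 followed with 46.8, 47.3, 44.6, 44.8 and 49.0 TPM (CV 4.02%), and then XR_005623288.1 (LOC120481311; 5.28%), XR_005626046.1 (5.73%) and XR_005625864.1 (5.78%). The most variable was XR_005623810.1, of 104 bases, with 15.2, 37.2, 5.97, 29.5 and 94.1 TPM (CV 94.7%) from a mean of 6.20 counts. XR_005624712.1, of 416 bases, had a CV of 92.1% from 119.9 counts, with 111 TPM in pool C and 5.90 TPM in pool D. The snoRNA model XR_005618688.1 (LOC120464424) ranged from 3.23 to 85.0 TPM.

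XR_005624496.1 and XR_005618782.1, both of 229 bases, were also among the 5 most variable. The first had 138, 203, 297, 37.1 and 0.00237 TPM in water, and 5.27, 0 and 0 TPM at 47.2 µg/L. The second had 32.9, 24.9, 16.7, 108 and 62.1 TPM in water, and 80.4, 0 and 63.2 TPM at 47.2 µg/L. For the first the group means differed by up to 76.9-fold, the widest range of all members, yet at 47.2 µg/L its log2 fold change from water was -6.03 ± 2.22 (SE; edgeR adjusted p = 0.376) and it was not called. At that concentration it is below 0.05 in the authors' deposited table, with a log2 fold change of -6.08 (adjusted p = 0.027).

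Most members kept their place across the groups. Of the 200, 151 were among the 200 highest non-coding models at each of the 5 concentrations, with 168 at 0.19 µg/L, 176 at 0.74 µg/L, 186 at 3.38 µg/L, 179 at 10.2 µg/L and 171 at 47.2 µg/L. In all 26 libraries 188 members were above 0, and 12 were listed at 0 in at least 1. Between the highest and lowest of the 6 group means the median member differed 1.55-fold. The fold was under 1.5 for 93 members, from 1.5 to under 2 for 63 and 2 or more for 44. The lowest of the 6 means was at 0.19 µg/L for 74 members, at 0.74 µg/L for 46 and at 47.2 µg/L for 40, and in the other groups for 6 to 19. The highest was in water for 42, and for 15, 9, 46, 53 and 35 in ascending order of concentration. High levels in water chose the members, and means of 3 libraries are less steady than means of 5. Shares over all transcripts are not given here, so these counts are a description. Summed TPM of the members was 91.8% of the water mean at 0.19 µg/L, 85.3% at 0.74 µg/L, 102% at 3.38 µg/L, 101% at 10.2 µg/L and 95.4% at 47.2 µg/L. Fragment length differed between the groups, and its part in these sums was not tested. By CPM the first of these was 109%, with the reads of the 3 long models highest in replicate B.

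The libraries also differed in fragment length, as implied by the deposited effective lengths. It was 235.2 to 239.6 bp in water, 248.2 to 257.5 bp at 0.19 µg/L and 250.4 to 263.1 bp at 0.74 µg/L, with no overlap with water. It was 222.3 to 242.4 bp at 3.38 µg/L, 226.2 to 246.5 bp at 10.2 µg/L and 228.1 to 247.2 bp at 47.2 µg/L. At 0.19 and 0.74 µg/L, fragment length and concentration cannot be told apart.

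Among the fluoxetine groups, which did not choose the members, some models differed. The F-test across the 5 concentrations called 18 of the 195 members that passed the count filter (9.23%; edgeR, adjusted p below 0.05), against 3.99% of all 43837 transcripts tested. Of transcripts at least as abundant in counts as the median member it called 9.17%, of other non-coding models 2.03% and of messenger models 4.07%. The members' share was thus near that of transcripts at least as abundant as the median member. That set has no upper limit and holds no transcript below the median member. Transcripts matched to the members in abundance were not compared. The 5 members that did not pass the filter were all under 150 bases. The filter used all 26 libraries, water included. On the fluoxetine libraries alone 191 members passed it. The members that passed only with the water libraries included were not called. In 16 of the 18 the mean CPM at 0.19, 0.74 and 47.2 µg/L was below that at both 3.38 and 10.2 µg/L, so the order did not follow concentration. XR_005622161.1 and XR_005621565.1 had the reverse order. For XR_005621565.1 it was barely met, with 70.6 ± 17.9 CPM at 47.2 µg/L and 70.2 ± 9.62 CPM at 10.2 µg/L (SD). That model had means of 97.3 and 102.6 CPM at 0.19 and 0.74 µg/L and 66.5 CPM at 3.38 µg/L. With fragment length as a covariate 1 member was called, XR_005622731.1 (edgeR adjusted p = 0.0414), and 0.0958% of all transcripts. The other 17 then had adjusted p between 0.167 and 0.694, so the values that follow hold without that covariate. With only the fluoxetine libraries in the fit 11 members were called (2.2% of all transcripts). Without replicate E at 10.2 µg/L 11 members were called (2.45% of all transcripts). Without both replicate B at 0.19 µg/L and replicate C at 3.38 µg/L 11 were called (1.83% of all transcripts). With the replicate letter as a block 30 were called (7.96% of all transcripts), 17 of them among these 18.

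XR_005622731.1, of 1865 bases and not paired, had the smallest p. It had 33.1, 34.6 and 35.3 CPM at 0.19 µg/L, 34.2 to 39.7 CPM at 0.74 µg/L and 30.9, 36.5 and 34.0 CPM at 47.2 µg/L, against 43.2 to 52.6 CPM at 3.38 µg/L and 45.4 to 63.2 CPM at 10.2 µg/L. The 11 libraries of the first 3 groups did not overlap the 10 of the other 2 (adjusted p = 0.000304). In water it had 42.1 to 48.8 CPM, above all of the first 3 groups, and its lowest pool was just below the lowest library at 3.38 µg/L.

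XR_005621900.1, of 1084 bases, had 14.8, 16.4 and 15.2 CPM at 0.19 µg/L, 12.9 to 18.7 CPM at 0.74 µg/L and 15.5, 16.1 and 16.9 CPM at 47.2 µg/L. At 3.38 µg/L it had 23.0 to 33.6 CPM and at 10.2 µg/L 19.5 to 32.4 CPM, again without overlap (edgeR adjusted p = 0.00138). XR_005620940.1, of 1043 bases, had the widest difference among the 10 with the smallest p, with 14.9 ± 2.40 CPM at 0.19 µg/L (SD, n = 3) and 33.0 ± 9.59 CPM at 10.2 µg/L (SD, n = 5). Its groups touched, at 22.2 CPM (adjusted p = 0.0038).

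XR_005620445.1, an lncRNA model, had 80.2 to 101 CPM at 0.19, 0.74 and 47.2 µg/L and 105.4 to 133.6 CPM at 3.38 and 10.2 µg/L (edgeR adjusted p = 0.00433). XR_005622776.1, of 461 bases, had 2.67 to 6.02 CPM in the first of these sets and 6.22 to 10.1 CPM in the second. For XR_005624582.1, of 920 bases, the ranges were 17.0 to 19.9 CPM and 21.1 to 31.0 CPM. These 3, with XR_005622731.1 and XR_005621900.1, are the 5 called members whose libraries did not overlap between those concentrations. Such a gap, in either direction, was found in 2.56% of the members tested, in 0.591% of all transcripts tested and in 13.1% of all that were called. XR_005618826.1, XR_005622168.1 and XR_005618024.1 had the same order of means with libraries that overlapped.

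The 110-base model XR_005622161.1 went the other way, with 66.0 ± 4.32 CPM at 0.19 µg/L (SD, n = 3), 56.0 ± 7.65 CPM at 0.74 µg/L (SD, n = 5) and 64.2 ± 7.48 CPM at 47.2 µg/L (SD, n = 3). It had 47.9 ± 4.23 CPM at 3.38 µg/L and 40.9 ± 8.67 CPM at 10.2 µg/L (SD, n = 5; edgeR adjusted p = 0.0167).

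**Figure D4:**
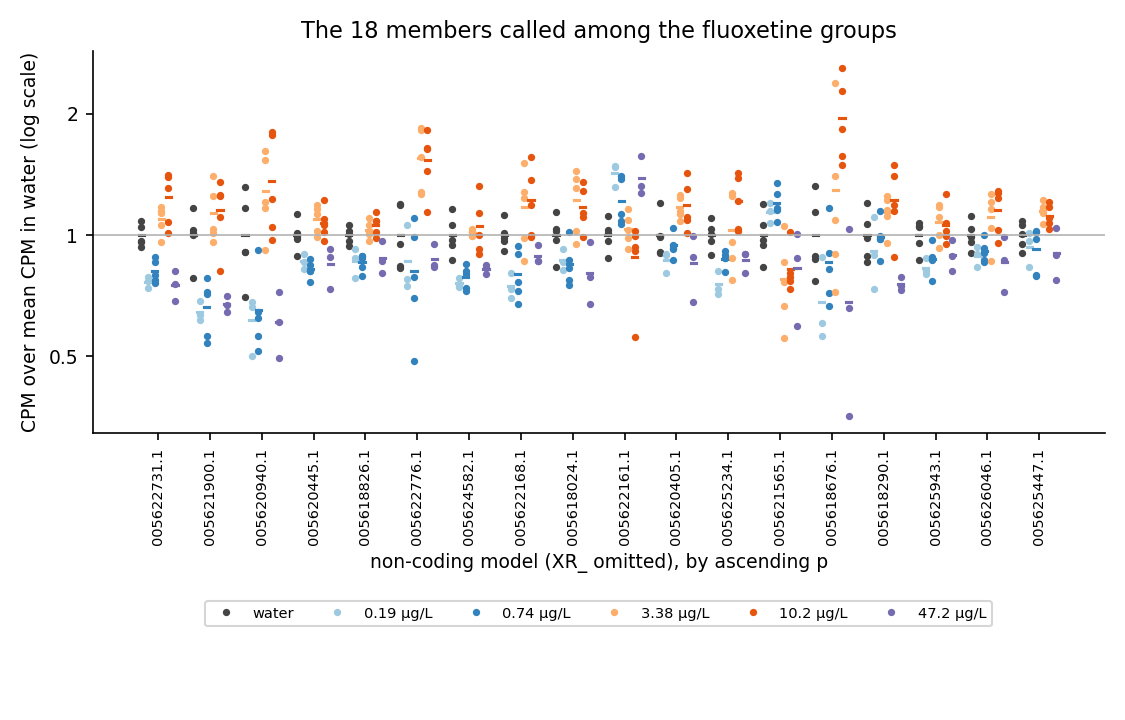
CPM of the 18 members called among the fluoxetine groups, divided by the mean CPM in water, on a log axis, with 1 point per library and a short line at each group mean. For 16 of the 18 the means at 0.19, 0.74 and 47.2 µg/L lie below those at 3.38 and 10.2 µg/L.

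This order of means was also found in members that were not called. It held in 81 of these 177 (45.8%), with the reverse order in 18 (10.2%), against 22.6% and 21.6% of all transcripts tested. Among all transcripts that the F-test called it held in 41.2%, with the reverse in 53.3%. These shares count transcripts that share libraries and are a description. The split of the concentrations into these 2 sets was made with results of these data known. For this order and for the gap above, shares among other non-coding or equally abundant transcripts are not given here. The median fold changes of other non-coding models, given below, fell on the same sides of water.

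A steady trend with concentration was not called in any member tested. The slope on log2 of the concentration over the 21 fluoxetine libraries called 0 of 191 members with edgeR, and 0.0% of all 43162 transcripts tested. At an unadjusted p under 0.05 there were 18 members (9.42%). Of all transcripts 4.8% had one, and of those at least as abundant as the median member 8.12%. DESeq2 called 0 members, and the share of all transcripts that it called is not given here. With edgeR the smallest p belonged to XR_005621565.1, of 587 bases, with a slope of -0.083 ± 0.024 log2 units per doubling of concentration (SE; adjusted p = 0.682), followed by XR_005618027.1 with 0.074 ± 0.022 (SE; adjusted p = 0.746).

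Against water, edgeR called 0 of the 195 members at each concentration, where it called 0.0502% of all transcripts at 0.19 µg/L, 0.089% at 0.74 µg/L, 0.0% at 3.38 µg/L, 0.0% at 10.2 µg/L and 0.103% at 47.2 µg/L. The members with an unadjusted p under 0.05 numbered 28, 32, 6, 13 and 30 in that order (14.4%, 16.4%, 3.08%, 6.67% and 15.4%). Of all transcripts 8.75%, 8.1%, 4.17%, 5.34% and 9.35% had one. Of transcripts at least as abundant as the median member 12.7%, 13.3%, 4.62%, 7.16% and 15.0% did. DESeq2 called 5 members at each of 0.19, 0.74 and 47.2 µg/L, against 1.27%, 0.926% and 1.7% of all transcripts. At the other concentrations it called 0 members, and its shares of all transcripts there are not given here. With the replicate letter as a block, edgeR called 2, 3 and 2 members at 0.19, 0.74 and 47.2 µg/L. It then called 0.178%, 0.235% and 0.415% of all transcripts. An F-test over all 5 contrasts with water called 12 members (6.15%), against 2.71% of all transcripts and 6.42% of those at least as abundant as the median member. Each of the 12 is among the 18 above. Since levels in water chose the members, these counts are a description.

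At 3.38 µg/L the smallest p was that of XR_005622776.1, with a log2 fold change of 0.64 ± 0.20 (SE; edgeR adjusted p = 1.0), and at 10.2 µg/L that of XR_005622731.1, with 0.32 ± 0.09 (SE; adjusted p = 0.925). The smallest p at 47.2 µg/L was that of XR_005622731.1, with a log2 fold change of -0.41 ± 0.10 (SE; edgeR adjusted p = 0.137). At 0.74 µg/L it was that of XR_005621900.1, with -0.59 ± 0.14 (SE; adjusted p = 0.137), which also led at 0.19 µg/L with -0.63 ± 0.16 (SE; adjusted p = 0.206). XR_005622161.1 had 0.51 ± 0.14 at 0.19 µg/L (SE; adjusted p = 0.268) and 0.48 ± 0.14 at 47.2 µg/L (SE; adjusted p = 0.251). The widest differences among the 5 with the smallest p at 47.2 µg/L were those of XR_005625169.1, with -1.76 ± 0.56 (SE; adjusted p = 0.279), and XR_005621975.1, with -1.39 ± 0.46 (SE; adjusted p = 0.298).

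In the authors' deposited tables, which list 133 of the members, 5 were below an adjusted p of 0.05 at 0.19 µg/L, 5 at 0.74 µg/L, 0 at 3.38 and 10.2 µg/L and 6 at 47.2 µg/L, where 1.75%, 1.48%, 0.0668%, 0.089% and 2.49% of all rows were.

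The members as a whole lay slightly below water in the same 3 groups, as other non-coding models did. The median log2 fold change over the 195 members was -0.16 at 0.19 µg/L, -0.18 at 0.74 µg/L, 0.05 at 3.38 µg/L, 0.08 at 10.2 µg/L and -0.13 at 47.2 µg/L. Over the 2314 other non-coding models tested it was -0.16, -0.15, 0.07, 0.09 and -0.11, and over the messenger models between -0.0028 and 0.0031. These comparisons share the water libraries. With fragment length as a covariate the members' medians were -0.08, -0.06, 0.03, 0.0039 and -0.13 in ascending order of concentration. Without replicate B at 47.2 µg/L the median there was -0.22.

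**Figure D5:**
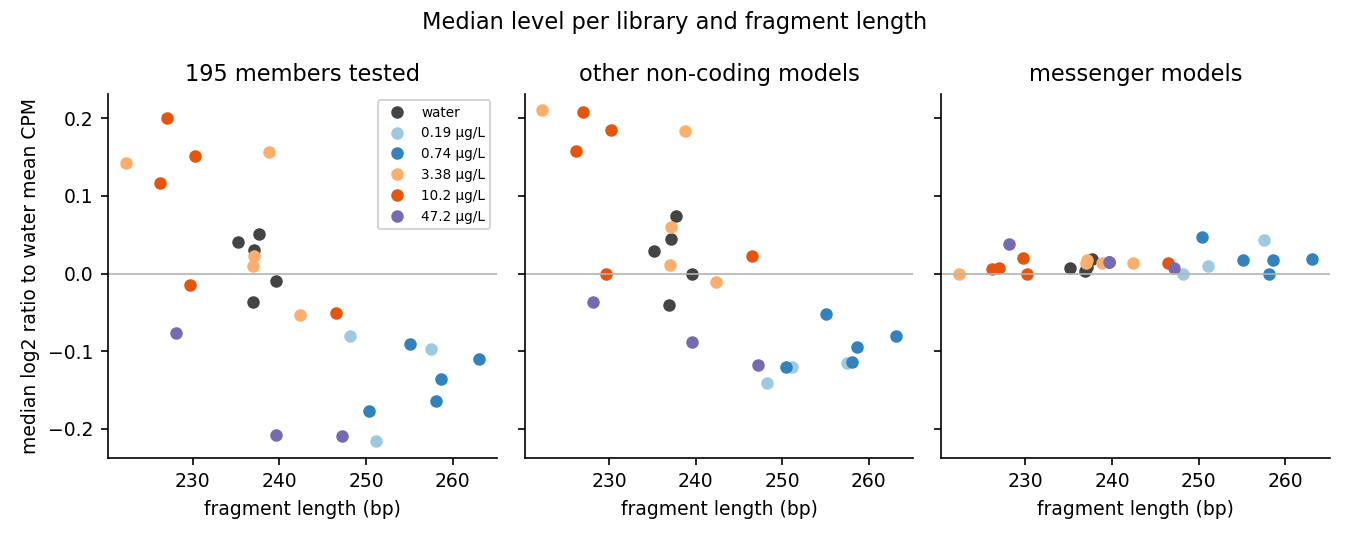
Median log2 ratio of CPM to the water mean in each library, plotted against the library's fragment length in bp, for the 195 members tested, the other non-coding models and the messenger models, coloured by group. Members range from -0.2158 to 0.2004 and messenger models from 0.0 to 0.0465.

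The members end at XR_005620788.1 (31.6 TPM in water), XR_005625939.1 (31.5 TPM) and XR_005625283.1 (31.1 TPM). Just outside were XR_005622335.1 (31.0 TPM), XR_005621639.1 (30.8 TPM) and XR_005622319.1 (30.7 TPM).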

How the data were processed

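Poly(A)-selected RNA from pools of 20 whole larvae was sequenced in 26 libraries. The submitters' processing notes name Trimmomatic 0.38, kallisto and DESeq2. Which index and build they used is not given in the sources used here. Deposited by the authors were estimated counts, TPM, lengths and effective lengths per RefSeq transcript. The authors also deposited comparison tables with a mean normalized signal, a log2 fold change, a test statistic (a score), a p-value and an adjusted p-value, which were only set beside the tests made here.

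Estimated counts were rounded and tested as deposited with edgeR 4.0.16 and limma 3.58.1 in R 4.3.3 (filterByExpr, TMM, robust quasi-likelihood fit of all 26 libraries, two-sided). Benjamini-Hochberg adjustment ran over all transcripts of a test, called below 0.05. The alternative test was DESeq2 1.42.0. Contrasts were each concentration against water, all 5 together, the 5 fluoxetine groups among themselves, and a slope on log2 concentration. The tests were tested on simulated data. CPM carries TMM factors. Fragment length was the median of length minus effective length over transcripts of at least 3000 bases. Since some effective lengths exceed the length, it need not reflect fragment length alone.

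Gene names and types came from a RefSeq gene table of fPimPro1.hap1.1, perhaps another build than the authors', matched without version, since only 15 members matched with it. It gives no sequence, so none is shown. None of the known non-coding gene symbols looked for was found in it.

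Members and lists were chosen with earlier results of these data known. Named members were the 20 highest, those called (up to 10 per test) or with the 5 smallest p, the 5 highest and 5 lowest CV, those at rank 200, and those with a symbol. The growth protocol gives each replicate its own 20 embryos. Intervals of counting error leave out variation from library preparation.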

Additional observations from a re-analysis of the deposited data

Results flagged for a closer look

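In 180 groups of 5 values, over 42 named members and 3 measures of the libraries, 18 held a library far from the others. Chance flags about 1 in 20 such groups where they are independent and their values follow a normal distribution. Here some members share all their values and some were named for a high CV in water. The 18 can therefore not be judged by that rate.

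Replicate B at 3.38 µg/L stood apart in XR_005617881.1 and XR_005622405.1, each at 4070 TPM against 1600 to 2110 TPM in the other 4 pools, and in XR_005621683.1 at 1890 TPM against 645 to 944 TPM. Replicate C of that group stood apart in XR_005621626.1, at 2580 TPM against 445 to 824 TPM, and in XR_005621622.1, XR_005621623.1, XR_005621624.1 and XR_005621625.1, which share 1 set of values, at 1140 TPM against 252 to 509 TPM. The members took 1.86% of its counts, against 0.933% to 1.08%. Replicate A of that group stood apart in the crebzf variant XR_005623508.1, at 54.9 TPM against 35.8 to 39.2 TPM, and in its fragment length, 222 bp against 237 to 242 bp.

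At 10.2 µg/L, replicate A had 70.7 TPM of XR_005623810.1 against 12.7 to 25 TPM, replicate B 69.8 TPM of XR_005624582.1 against 51.7 to 55.6 TPM, and replicate C a fragment length of 246 bp against 226 to 230 bp. At 0.74 µg/L, replicate A had 416 TPM of XR_005620587.1 against 119 to 195 TPM and 123 TPM of the cirbpb variant XR_005624017.1 against 92.4 to 101 TPM, and replicate E had 46.3 TPM of XR_005620940.1 against 27.3 to 32.2 TPM. In water, pool A had 143 TPM of the rsrp1 variant XR_005622914.1 against 83.8 to 99.8 TPM. The causes were not tested.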

How the results depend on the processing

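Counts of members called moved with the model. DESeq2 called 5 members at 0.19, 0.74 and 47.2 µg/L each, 37 in the F-test against water and 41 among the fluoxetine groups, where it called 1.27%, 0.926%, 1.7%, 10.6% and 11.6% of all transcripts. With fragment length as a covariate the F-tests called 0 and 1, against 0.0479% and 0.0958% of all transcripts. With only the fluoxetine libraries in the fit, 11 members were called among them, against 2.2% of all transcripts. Replicate B at 0.19 µg/L and replicate C at 3.38 µg/L were also left out together, chosen after seeing the data. The F-tests then called 7 and 11 members, against 1.19% and 1.83% of all transcripts. Of the 11, 10 were among the 18. The median log2 fold change of members at 0.74 µg/L was -0.0576 with fragment length as a covariate and -0.2286 with length-corrected counts, and at 47.2 µg/L -0.2159 without replicate B of the 0.19 and 47.2 µg/L groups. By CPM in place of TPM, 99 members remained among the 200, and the summed level relative to water was 109% at 0.19 µg/L, which reversed its direction, and 76.3% at 0.74 µg/L. The causes were not tested.

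Leaving out 1 library, the F-test among the fluoxetine groups called 11 to 23 members, and the F-test against water 8 to 18. The former called fewest without replicate E at 10.2 µg/L, where it called 2.45% of all transcripts. The shares of all transcripts in the other such fits are not given here. Of the 18 calls, 11 held in all 26 such fits and 7 in some, down to 4 fits for XR_005626046.1. Single concentrations and the slope stayed at 0. Median log2 fold changes ranged from -0.1934 to -0.1418 at 0.19 µg/L, -0.2085 to -0.1396 at 0.74 µg/L, 0.0267 to 0.092 at 3.38 µg/L, 0.0419 to 0.0989 at 10.2 µg/L and -0.2162 to -0.1191 at 47.2 µg/L. Membership ranged from 190 to 197 and the median CV from 22.7% to 24%. Summed TPM relative to water ranged from 84.6% to 97.1%, 84.4% to 86.5%, 97.9% to 105%, 98.2% to 103% and 89.8% to 99.2% in ascending order of concentration.

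Groups share replicate letters but no label says that a letter marks a shared litter, batch or day. Deviations of same-letter libraries correlated at -0.0232 to 0.133 (median 0.054), with 8 of 57 pairs above 0.1. Those of other letters correlated at -0.104 to 0.0636 (median -0.0113), with 0 of 222 pairs above 0.1. Of the 26 libraries, 25 correlated best with their own letter. Same-letter libraries were thus more alike in nearly every case, though the correlations were low. The main tests leave the letter out because no label says what it marks, so they do not take this likeness into account. With the letter as a block, 2, 3 and 2 members were called at 0.19, 0.74 and 47.2 µg/L, 25 in the F-test against water and 30 among the fluoxetine groups, 17 of them among the 18, against 0.178%, 0.235%, 0.415%, 6.23% and 7.96% of all transcripts. Shares of a gene's TPM could not be recomputed with versioned accessions, since only 15 members matched.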
